A study of Homo sapiens with 6 samples.

Results

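Cells make purine nucleotides either from small precursors, along the de novo pathway that ends in inosine monophosphate, or by salvage of free bases. Inosine monophosphate is then turned into adenine or guanine nucleotides. For DNA synthesis, ribonucleotide reductase converts ribonucleotides into deoxynucleotides, and thymidylate synthase, dUTPase and thymidine kinase supply thymidine nucleotides and keep uracil out of DNA. Several of these genes are transcribed mainly in cells that enter S phase, and neuroblastoma cells in culture depend on them for continued division.

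The genes described here are 10 enzymes of this supply line: PAICS, ADSL and ATIC of the de novo purine pathway, IMPDH2 and GMPS of the guanine branch, the ribonucleotide reductase subunits RRM1 and RRM2, and TYMS, DUT and TK1 of thymidine nucleotide supply. They were taken by the gene that the array's annotation gives for each spot. Of the 10 symbols, 9 had a spot, with 12 spots in all among 9169 spots and 6255 named genes. DUT, which encodes the enzyme that hydrolyses dUTP, was not analysed here. IMPDH2, TYMS and TK1 had 2 spots each and are identified by spot number below, while the other 6 genes had 1. The list was chosen by gene symbol, but with the differences between DN-TRF2 and GFP control arrays at these spots already known, so all differences of its members between the groups are given as description and carry no test of their own.

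The study used SH-SY5Y, an established human neuroblastoma line. The 3 GFP control samples carried a pEGF-C2 vector (spelled as in the labels) with no insert, and the 3 DN-TRF2 samples carried a pIRES2-EGFP vector with a dominant-negative form of TRF2, a telomere-binding shelterin protein. All 6 were transfected, selected in geneticin at 500 µg/ml and harvested on day 7, and about 5 µg of total RNA per sample was labelled with 33P and hybridized to 1 cDNA array each. The backbones differ between the groups, so that insert and backbone cannot be told apart, and TRF2 itself was not analysed here, which leaves the labels unchecked against the targeted gene. The protocols name 3 independent experiments. In RNA from whole cultures, fewer cells of a type and less RNA per cell cannot be told apart.

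Median spot intensity per array was between 480 and 712. Precision is limited by having 3 arrays a group, and the 95% half-width of a difference ran from 0.30 to 0.89 (log2) over the 12 member spots. GFP control replicate 2 stood apart from the other control arrays: its deviations from the group mean had an SD of 0.30 over spots, against 0.25 and 0.21 for control replicates 1 and 3. Correlations between arrays, taken over spots, were 0.954 to 0.980 among controls and 0.987 to 0.992 among DN-TRF2 arrays. Across all 9169 spots, 0 passed limma's test (two-sided, Benjamini-Hochberg adjusted p under 0.05) in either direction. Before adjustment 313 spots (3.41%) had a p under 0.05, and 527 (5.75%) with the replicate number as a block, where again 0 passed. Of the neuroblastic markers, 9 of 17 had a spot and 0 of the 9 genes lay at the stand-in value for no signal on all arrays. Their mean level was 9.89 to 9.96 (log2) on GFP control and 9.90 to 9.99 on DN-TRF2 arrays. The level of that mean hides differences by gene, as 5 had a lower and 4 a higher mean in DN-TRF2 cells. These differences (DN-TRF2 minus GFP control, log2) ran from -0.27 at NEFM to 0.33 at STMN2 and 0.46 at GAP43.

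Among these genes PAICS stood lower in DN-TRF2 cells, and the 7 genes other than PAICS and RRM2 showed no common direction. RRM2 was lower by a smaller amount, with an interval that included 0 and overlap in the deposited intensities. Of the 9 genes, 4 had a lower and 5 a higher mean in DN-TRF2 cells, and the median of the 9 differences was 0.016 (log2), against a lower mean at 52.0% of all named genes and a median of -0.0067 over them. The groups did not overlap at 2 of the 12 member spots, both lower in DN-TRF2, where 4.43% of all spots were separated in that direction and 8.70% in either. As the members were picked with these values known, nothing is read from that count. All values below are log2 of intensity plus 50 after quantile normalization, and a difference is DN-TRF2 minus GFP control on that scale, which understates changes of dim spots. Differences carry limma's standard error (n = 3 arrays per group).

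**Figure D1:**
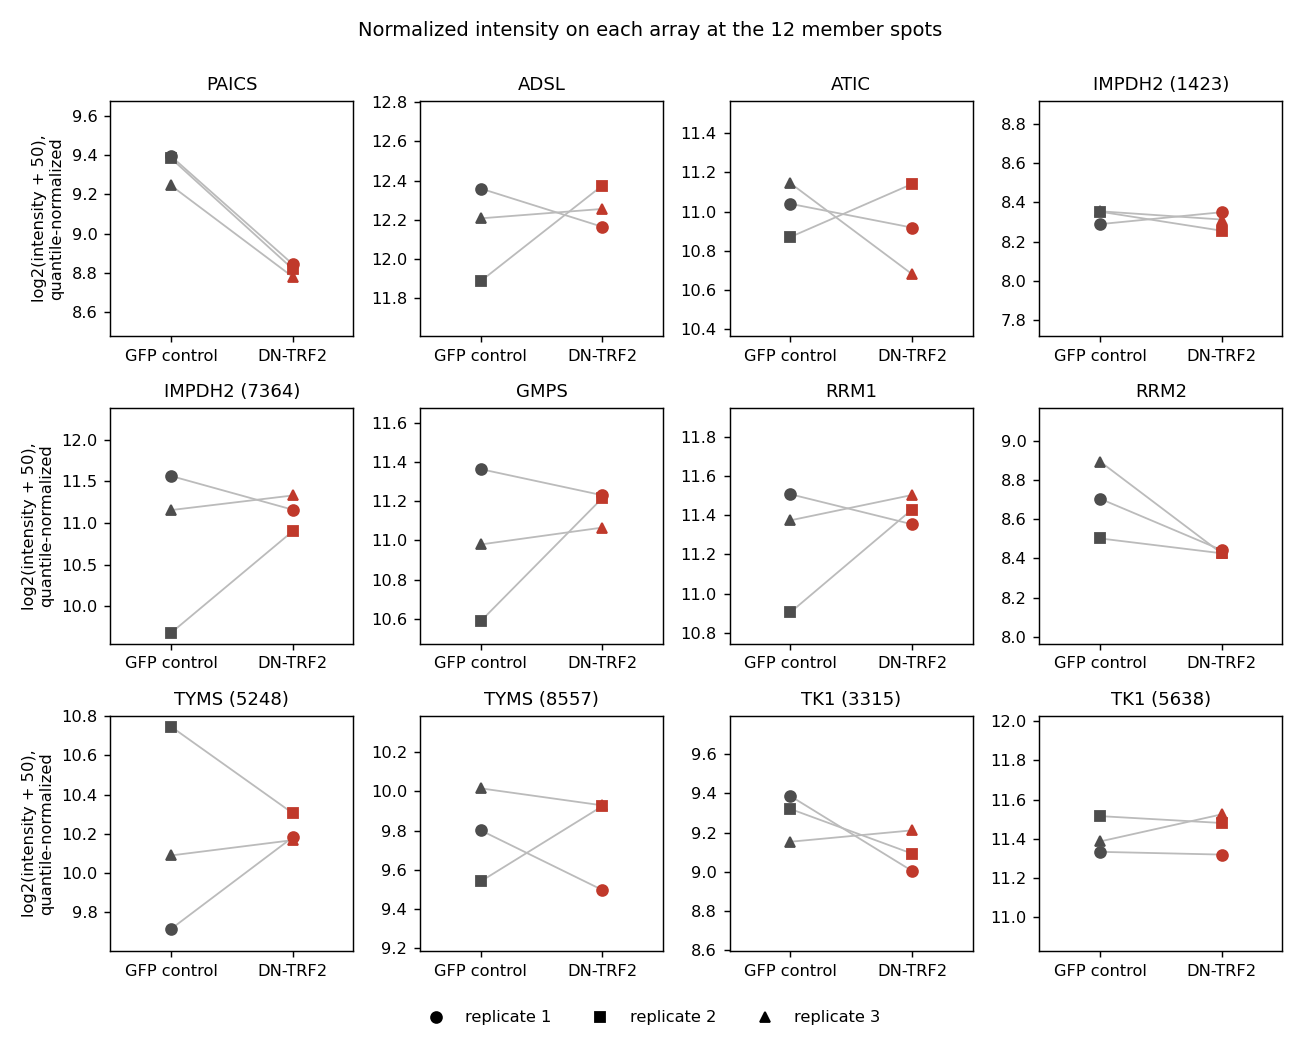
Normalized intensity (log2 of intensity plus 50) at each of the 12 member spots, with 1 panel per spot and lines that join arrays of the same replicate number. The 3 DN-TRF2 arrays lie below all 3 GFP control arrays at PAICS (8.78 to 8.85 against 9.25 to 9.40) and at RRM2 (8.42 to 8.44 against 8.50 to 8.89), and the groups overlap in the other 10 panels.

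PAICS encodes a bifunctional enzyme that carries out consecutive middle steps of de novo purine synthesis. Its single spot read 9.40, 9.38 and 9.25 on GFP control arrays 1 to 3, and 8.85, 8.82 and 8.78 on DN-TRF2 arrays 1 to 3. Every DN-TRF2 array thus lay below every control array, and both groups were tight, with SDs of 0.083 and 0.033. The difference was -0.53 ± 0.13 (95% interval -0.83 to -0.23), which is 30.6% lower on the offset scale. By replicate number it was -0.55, -0.56 and -0.47, the narrowest range among the 12 member spots. In the intensities as deposited the separation was already present: 519, 569 and 686 in GFP control against 367, 406 and 463 in DN-TRF2 cells. A difference as low or lower occurred at 0.316% of all spots. PAICS has no second spot that could bear on it, and its signal lay at percentile 45.2 of all spots.

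PAICS shares a divergent promoter with PPAT, which encodes the amidotransferase that commits precursors to the purine pathway and is transcribed from the opposite strand. RefSeq (GRCh38.p14) lists 3 start sites for PAICS, and the start of PPAT lies 137 bases from the PAICS start used here. The stretch between those starts is shown because the groups were separated at PAICS and overlapped at PPAT. It lies at chr4:56435616-56435751 and is written on the PAICS strand:

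PPAT-PAICS between starts: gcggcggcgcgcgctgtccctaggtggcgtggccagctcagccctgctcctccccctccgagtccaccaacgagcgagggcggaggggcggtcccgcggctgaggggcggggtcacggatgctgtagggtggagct

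The run was searched on both strands for the CCAAT box (CCAAT), the E-box (CACGTG) and the E2F site (TTTCCCGC, TTTCGCGC, TTTGCCGC or TTTGGCGC), and 0 matches to each were found in these letters. Among 35116 promoter windows of 300 bases these motifs occurred in 34.6%, 7.26% and 3.31%. The run is only 136 bases long, so its 0 matches cannot be set against those shares. The 300-base windows of PPAT and of the PAICS start used here each held 1 E-box, not within the run. PPAT itself read 10.20 ± 0.28 (SD, n = 3) in GFP control and 10.09 ± 0.067 in DN-TRF2 cells, a difference of -0.11 ± 0.17. By replicate number PPAT differed by 0.13, -0.16 and -0.30, so that its control and DN-TRF2 arrays overlapped where those of PAICS did not. Whether the 2 genes differ from each other was not tested, since PAICS was chosen for this contrast.

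The neighbouring enzymes of the purine pathway did not share the low values of PAICS. ADSL encodes adenylosuccinate lyase, which acts both just after PAICS and in the adenine branch. It read 12.36, 11.89 and 12.21 in GFP control and 12.16, 12.38 and 12.26 in DN-TRF2 cells. The groups overlapped, with the lowest value on GFP control replicate 2. The difference was 0.11 ± 0.16 (interval -0.25 to 0.48), and by replicate number -0.20, 0.49 and 0.048, in mixed directions.

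ATIC encodes the bifunctional enzyme that completes inosine monophosphate. Its spot read 11.04, 10.87 and 11.15 in GFP control and 10.92, 11.14 and 10.68 in DN-TRF2 cells. The lowest array was DN-TRF2 replicate 3 and the highest GFP control replicate 3, and the groups overlapped. The difference of -0.10 ± 0.16 had an interval of -0.47 to 0.26. It came to 0.012 without DN-TRF2 replicate 3, so its direction rests on that array, and to -0.22 without DN-TRF2 replicate 2, -0.18 and -0.042 on leaving out GFP control replicate 2 or 3, -0.24 with array weights and -0.18 under median scaling. Values by replicate number were -0.12, 0.27 and -0.46, and a value as low as that of PAICS lies just below the interval.

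In the guanine branch, IMPDH2 encodes the inosine monophosphate dehydrogenase that is induced in dividing cells and limits guanine nucleotide synthesis. At spot 1423 it read 8.29, 8.35 and 8.35 in GFP control and 8.35, 8.26 and 8.31 in DN-TRF2 cells, nearly level on all 6 arrays. The difference there was -0.026 ± 0.13 (interval -0.32 to 0.27). At spot 7364 the arrays scattered far more: 11.57, 9.68 and 11.16 in GFP control and 11.16, 10.90 and 11.33 in DN-TRF2 cells. GFP control replicate 2 lay far below the other 5, at an intensity of 734 against 1836 to 2790. The difference at spot 7364 was 0.33 ± 0.40 with all arrays (interval -0.56 to 1.22). That interval is wide enough to include the difference at PAICS. Without GFP control replicate 2 the difference at spot 7364 was -0.23, so its direction rests on that array. The spots of IMPDH2 therefore agree neither in spread nor in sign, and the gene gave no stable difference.

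GMPS encodes the synthetase that aminates xanthosine monophosphate to guanosine monophosphate. It read 11.36, 10.59 and 10.98 in GFP control and 11.23, 11.22 and 11.07 in DN-TRF2 cells. Again the lowest value was on GFP control replicate 2 and the groups overlapped. The difference of 0.19 ± 0.20 (interval -0.25 to 0.64) came to -0.0013 without that array.

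**Figure D2:**
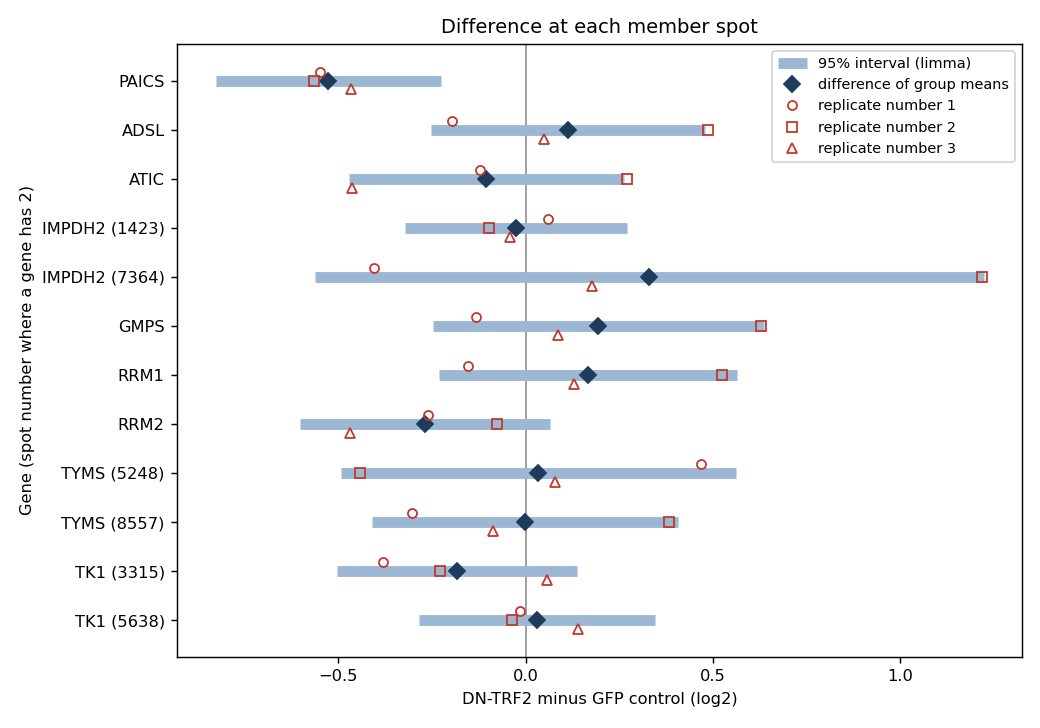
Difference at each member spot, DN-TRF2 minus GFP control in log2 units: diamonds are differences of group means, bars limma's 95% intervals, and open symbols the differences between arrays of the same replicate number. The interval of PAICS lies wholly below 0 and includes all 3 replicate numbers; the intervals of the other 11 spots include 0.

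Ribonucleotide reductase pairs a large catalytic subunit, encoded by RRM1, with a small radical-bearing subunit, encoded by RRM2. The level of the small subunit follows the cell cycle. RRM2 read 8.70, 8.50 and 8.89 in GFP control and 8.44, 8.43 and 8.42 in DN-TRF2 cells. All DN-TRF2 arrays lay below all controls, by a narrow margin at GFP control replicate 2, and the DN-TRF2 arrays were almost equal (SD 0.0095, against 0.20 in the controls). The difference was -0.27 ± 0.15 (interval -0.60 to 0.066), or 17.0% lower on the offset scale, and by replicate number it was -0.26, -0.076 and -0.47. In the deposited intensities the groups overlapped, at 306, 272 and 530 against 267, 301 and 350, so the separation appears only after normalization. A difference as low or lower was found at 5.80% of all spots. PAICS and RRM2 were the only member spots lower at all 3 replicate numbers, as were 14.7% of all spots.

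RRM1 did not share the low values of RRM2. Its spot read 11.51, 10.90 and 11.37 in GFP control and 11.35, 11.43 and 11.50 in DN-TRF2 cells. The groups overlapped, and GFP control replicate 2 was lowest. The difference of 0.17 ± 0.18 (interval -0.23 to 0.56) came to -0.011 without that array, while RRM2 came to -0.36 without it. The intervals of RRM1 and RRM2 overlap, and whether the subunit genes differ from each other was not tested.

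The RRM2 promoter is shown as the second of the genes whose groups were separated. RefSeq lists 2 start sites, and the 250 bases before the downstream one lie at chr2:10122489-10122738 on the plus strand (GRCh38.p14). Capitals mark CCAAT boxes, the only one of the searched motifs found there:

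RRM2 upstream: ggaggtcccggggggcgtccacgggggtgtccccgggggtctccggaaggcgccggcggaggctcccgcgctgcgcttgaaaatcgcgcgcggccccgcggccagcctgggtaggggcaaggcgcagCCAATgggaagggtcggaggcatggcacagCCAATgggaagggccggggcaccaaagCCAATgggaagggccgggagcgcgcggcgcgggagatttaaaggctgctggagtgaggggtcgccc

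The run holds 3 CCAAT boxes in 1 orientation, each followed by gggaagg. At least 3 matches on either strand occurred in 3.26% of the 35116 promoter windows. Of the other member windows, that of the downstream TK1 start held 2 matches and that of RRM1 held 1. The TYMS window held 1 E2F site and 0 CCAAT boxes, the ATIC window held 2 E-boxes, and 1 of the 3 PAICS windows held 1, outside the stretch printed above.

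In thymidine nucleotide supply, neither TYMS nor TK1 differed in a way that its spots shared. TYMS encodes thymidylate synthase, which methylates dUMP with a folate cofactor. At spot 5248 it read 9.72, 10.75 and 10.09 in GFP control and 10.18, 10.31 and 10.17 in DN-TRF2 cells. The controls spread on both sides of the tight DN-TRF2 values, with GFP control replicate 2 the highest array and replicate 1 the lowest. The difference of 0.034 ± 0.24 came to 0.31 without GFP control replicate 2 and -0.20 without GFP control replicate 1.

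At spot 8557 TYMS read 9.80, 9.54 and 10.02 in GFP control and 9.50, 9.92 and 9.93 in DN-TRF2 cells. Here DN-TRF2 replicate 1 was lowest, GFP control replicate 2 next, and GFP control replicate 3 highest, an order unlike that at the other TYMS spot. The difference was -0.0026 ± 0.18 (interval -0.41 to 0.41).

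TK1 encodes the cytosolic thymidine kinase, a salvage enzyme of S-phase cells. At spot 3315 it read 9.39, 9.32 and 9.15 in GFP control and 9.01, 9.09 and 9.21 in DN-TRF2 cells, with overlap through replicate number 3. The difference was -0.18 ± 0.14 (interval -0.50 to 0.14), and by replicate number -0.38, -0.23 and 0.058. At spot 5638 it read 11.33, 11.52 and 11.39 against 11.32, 11.48 and 11.53, nearly the same on every array. The difference there was 0.030 ± 0.14 (interval -0.29 to 0.34). With the spots averaged, TK1 was 1 of the 4 member genes with a lower mean.

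Leaving out 1 array changed the sign at several member spots. Both TYMS spots changed sign without GFP control replicate 1 or 3, and TK1 spot 5638 without GFP control replicate 1. ATIC and TK1 spot 5638 did so without DN-TRF2 replicate 3, and 1 TYMS spot each without DN-TRF2 replicates 1 and 2. Without GFP control replicate 2 the sign changed at 4 of the 12 spots (ADSL, IMPDH2 spot 7364, GMPS and RRM1). That array was the lowest of the 6 at these 4 spots and the highest at 1 (TYMS spot 5248). Over all spots it was lowest at 27.0% and highest at 32.1%. Without it, 8 of the 9 genes had a lower mean in DN-TRF2 cells, against 49.1% of all named genes, and TYMS was the exception. For ADSL, GMPS and RRM1 those differences were small, at -0.019, -0.0013 and -0.011, so the count of 8 includes 3 genes that lay almost level. PAICS stayed at -0.50 without this array, and ran from -0.57 to -0.50 over the 6 ways to leave out 1 array. RRM2 ran from -0.36 to -0.17, the latter without GFP control replicate 3.

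**Figure D3:**
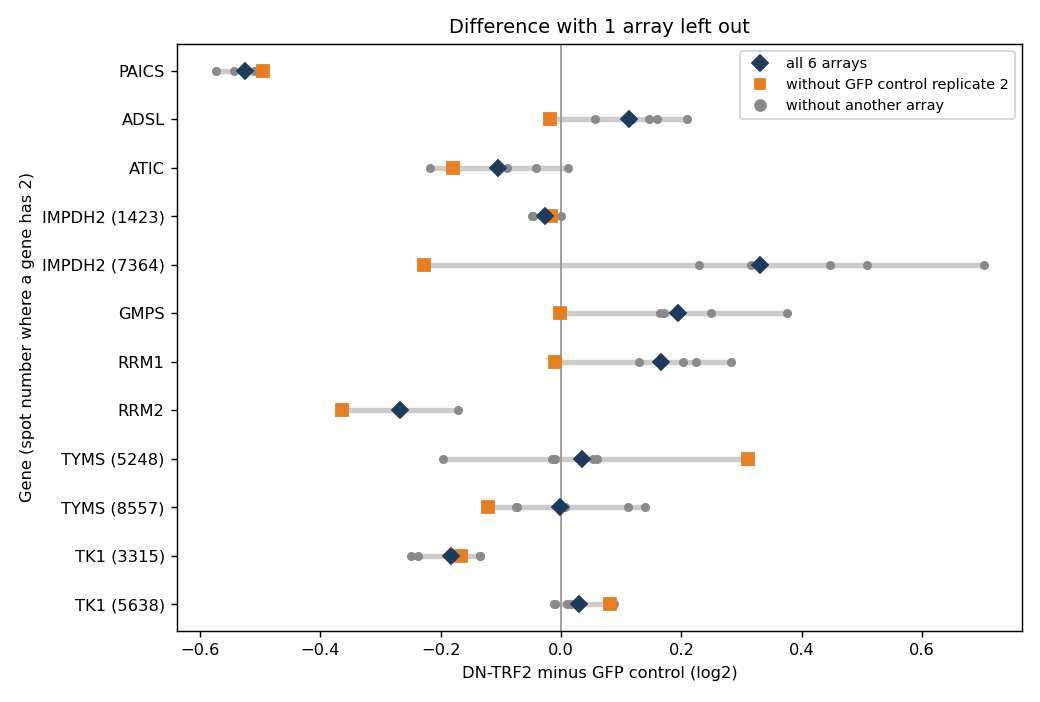
Difference (log2, DN-TRF2 minus GFP control) at each member spot with all 6 arrays (diamonds), without GFP control replicate 2 (squares) and without each other array (dots); grey bars span the 6 values. PAICS stays between -0.57 and -0.50, whereas IMPDH2 spot 7364 runs from -0.23 to 0.70 and TYMS spot 5248 from -0.20 to 0.31.

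Related genes of nucleotide supply outside the members went both ways. Of 75 such genes on 5 lists, 41 had a spot, 20 with a lower and 21 with a higher mean in DN-TRF2 cells, around a median of 0.00071. None of their 52 spots passed limma's adjusted p or had an unadjusted p under 0.05. The groups did not overlap at 1 spot that was lower and 3 that were higher, or 7.69% of the 52, near the 8.70% over all spots.

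The de novo purine list also held PPAT, PRPS1 and GMPR with a spot. All 3 had differences below 0, but that of PRPS1 was almost level, and GMPR is not itself a step of de novo synthesis. GMPR, the reductase that returns guanosine to inosine monophosphate, differed by -0.18 ± 0.16, and PRPS1, which makes the activated ribose that starts the pathway, by -0.0067 ± 0.16. GART and IMPDH1 were not analysed here. Purine salvage genes and nucleotide kinases had 8 of 15 genes lower: HPRT1, which salvages hypoxanthine and guanine, differed by -0.19 ± 0.22, the adenylate kinase gene AK1 by 0.30 ± 0.20 and the nucleoside diphosphate kinase relative NME6 by 0.23 ± 0.18. The guanylate kinase gene GUK1 differed by -0.30 ± 0.14 at a dim spot and by -0.015 ± 0.21 at its other spot.

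The other deoxynucleotide genes had 4 of 8 lower and a median of -0.0032. DCTPP1, a dCTP pyrophosphatase, differed by 0.30 ± 0.18 and DTYMK, the thymidylate kinase that acts after TYMS and TK1, by -0.17 ± 0.17. DGUOK, a mitochondrial deoxyguanosine kinase, differed by 0.16 ± 0.18 and 0.054 ± 0.28 at its spots. RRM2B and TK2 were not analysed here.

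Of the pyrimidine genes 6 of 8 had a higher mean. DPYD, which breaks down uracil and thymine, differed by 0.24 ± 0.14 with no overlap between the groups, CAD, which starts pyrimidine synthesis, by 0.29 ± 0.23 and the uridine kinase gene UCK1 by 0.22 ± 0.20. Folate one-carbon genes, which feed carbon into purines and thymidylate, had 4 of 7 higher. Among them SHMT1, a serine hydroxymethyltransferase, differed by 0.22 ± 0.17, FPGS, which adds glutamate to folates, by 0.16 ± 0.16 and MTHFD1, which interconverts folate cofactors, by 0.17 ± 0.17. Limma's adjusted p was 0.999 or 1.00 at every spot of the 5 lists.

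**Figure D4:**
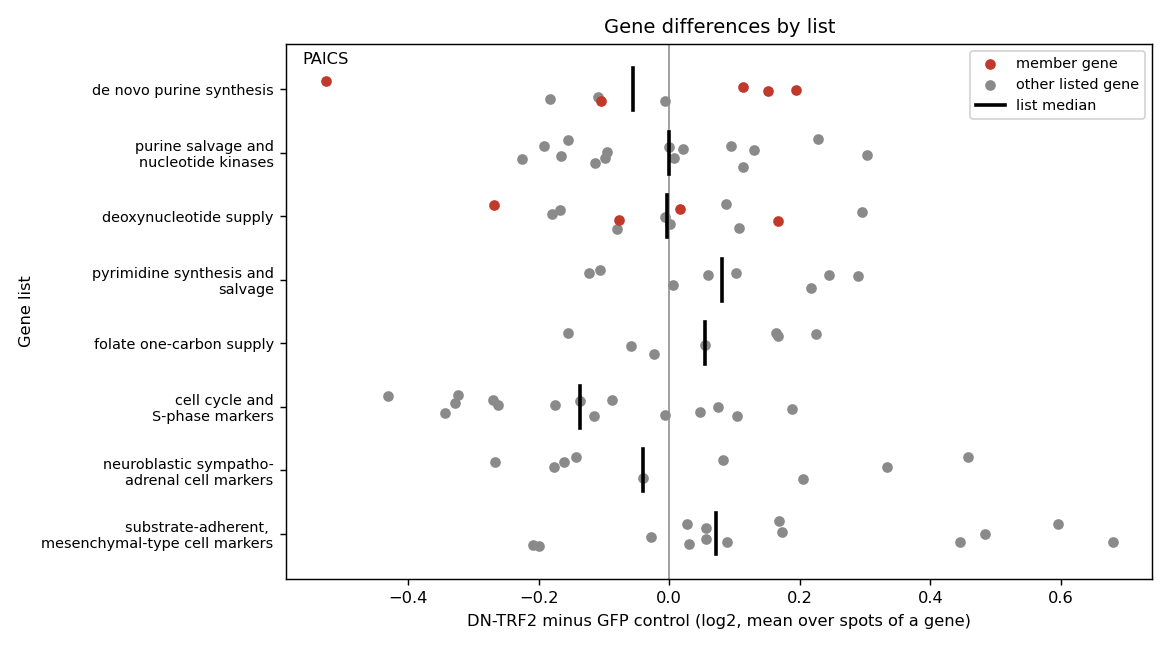
Difference of each measured gene (log2, DN-TRF2 minus GFP control, spots averaged) by list, with member genes in red, other genes in grey and list medians as black bars; vertical scatter within a list has no meaning. PAICS at -0.53 is the lowest gene of the de novo purine list, and the cell cycle list has a median of -0.14.

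Most measured markers of the cell cycle and of S phase had a lower mean in DN-TRF2 cells, as did PAICS and RRM2. Of 25 listed genes 15 had a spot. Of these, 11 had a lower and 4 a higher mean, where 52.0% of all named genes had a lower mean. The list's median was -0.14 (log2). It was written with earlier results of these data known, so nothing is read from these counts or from the list's mean level. The mean level of the list was 9.24, 9.17 and 9.16 on GFP control arrays 1 to 3 and 9.11, 9.01 and 9.04 on DN-TRF2 arrays 1 to 3, without overlap. MCM7, a subunit of the replicative helicase, differed by -0.81 ± 0.23 at 1 spot and by -0.057 ± 0.17 at its other, brighter spot. GMNN, which encodes the licensing inhibitor geminin, differed by -0.37 ± 0.15 and -0.16 ± 0.15, and CDK1, the mitotic kinase, by -0.33 ± 0.14. These 3 genes were named as those of smallest unadjusted p. The lower spot of MCM7, that of GMNN and the CDK1 spot were dim, at signal percentiles 36.9, 32.4 and 13.8. PCNA, the sliding clamp of DNA polymerase, differed by 0.074 ± 0.17. The other genes with a higher mean were CCNB1 (0.19), GINS1 (0.10) and MCM5 (0.048, spots averaged). Limma's adjusted p was 0.999 for each of these spots. The mean deviation of the member genes per array was 0.14, -0.16 and 0.082 in GFP control and -0.053, 0.023 and -0.026 in DN-TRF2 cells. The groups overlapped, with GFP control replicate 2 the lowest array. PAICS and RRM2 are among the genes averaged, and the members were picked with these values known, so nothing is read from these means. The difference between the members and the cell cycle list was not tested. The share of the cell cycle markers in the PAICS and RRM2 values was not tested.

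The mean level of markers of substrate-adherent, mesenchymal-type cells, the other cell form found in this line, was separated between the groups as well. Of 20 such genes 14 had a spot, 11 with a higher mean, and 0 of the 14 lay at the stand-in value on all arrays. Their mean level was 9.63 to 9.68 (log2) on GFP control and 9.79 to 9.87 on DN-TRF2 arrays. The list's median difference was 0.072. By spot, the groups did not overlap at 5 of its 20 spots, or 25%, against 8.70% of all spots in either direction. Those 5 were the spots of TIMP1, S100A6 and CAV2, all higher in DN-TRF2 cells. TIMP1, a secreted protease inhibitor, was highest at 0.68 (spots averaged), followed by S100A6 at 0.59, CAV2 at 0.48 and LUM at 0.45, whereas COL5A1 at -0.21, VIM at -0.20 and FN1 at -0.029 had lower means. The list was written with earlier results of these data known. Its markers were named after their values were seen, so these values are given as description only. The share of the mesenchymal-type markers in the PAICS and RRM2 values was not tested.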

How the data were processed

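The deposited values are linear spot intensity values on 6 one-channel cDNA arrays as the authors made them. How the images were read, corrected for background and scaled is not given in the sources used here. A recurring value of 10 was read as standing in for no signal. Removing each 25th position (384 blanks) and 47 further spots that held 10 throughout gave 9169 spots. All 12 member spots lay above 10 on every array (lowest 219). Spots were named through GEO's platform annotation, and gene IDs gave the current symbols of RefSeq (GRCh38.p14); 8493 of 8517 annotated spots matched. Clones of related genes can cross-hybridize, and spots of 1 gene can disagree, so values were compared between arrays within a spot only.

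An offset of 50 was added, log2 taken, and the arrays quantile-normalized. Each spot was tested with limma 3.58.1 (R 4.3.3; lmFit, eBayes, two-sided, Benjamini-Hochberg over all spots); the steps were tested on simulated data. Intervals are 95% intervals from limma's moderated standard error and do not account for the choice of members. Both groups are numbered 1 to 3. Once group means were removed, GFP control and DN-TRF2 arrays of 1 number correlated over spots at 0.390, 0.296 and 0.246; the numbers were therefore taken as pairs, on these values alone. Differences are also given by number, but the errors, intervals and calls reported come from the fit without the replicate block, and the block was run as an alternative.

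The members and lists were chosen with earlier results of these data known. Named were all members with a spot, set partners (PPAT, GART, IMPDH1, RRM2B, TK2, HPRT1, PCNA) and up to 3 genes of smallest unadjusted p per list. The mesenchymal-type markers were named after their values were seen. Gene values are means over spots. Alternatives were other offsets, normalizations, a filter on dim spots, array weights, the replicate block, the brightest spot per gene and leaving out each array. Promoter sequences are from RefSeq.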

Additional observations from a re-analysis of the deposited data

How the results depend on the processing

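Limma's adjusted p called 0 spots under each alternative but the brightest spot per gene, which does not bear on that count, and 0 related nucleotide genes under all alternatives. Spots at an unadjusted p under 0.05, 313 with the settings reported, came to 527 with the replicate block, 583 with array weights and 115 without the spots below median signal. With 1 array left out they ran from 141 (without DN-TRF2 replicate 2) to 792 (without GFP control replicate 2), with 154 without DN-TRF2 replicate 3 and 655 without GFP control replicate 3. Member genes with a lower mean, 4 of 9, came to 1 of the 7 still measured without the spots below median signal, a filter that removes PAICS and RRM2. With 1 array left out this count ran from 4 to 8, the latter without GFP control replicate 2. The median over member genes ran from -0.072 to 0.096 with 1 array left out, and was -0.021 under median scaling. The replicate block cannot change a difference in this balanced design, so the unchanged member differences under it are no check. It changed no call by adjusted p. The differences of PAICS, RRM2, IMPDH2 spot 1423 and TK1 spot 3315 kept their sign in each of the 12 settings run on them, the replicate block among these. Those of TYMS (both spots) and TK1 spot 5638 changed sign in 4 of 13. Why these values moved was not tested. With 3 arrays per group, the narrowest 95% half-width at a member spot was 0.30 (log2), so smaller differences could not be resolved.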
